A study of Mus musculus with 2 samples.

Results

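The 7 genes described here encode the 5 kainate receptor subunits, Grik1, Grik2, Grik3, Grik4 and Grik5, and the auxiliary proteins Neto1 and Neto2. They were taken by gene symbol, and all 7 were found among the 23329 genes of the deposited files, with 9 of 30383 transcripts. RNA came from whole brain of wild-type C57BL/6 mice, and the labels used here give neither their age nor how many were used. The synaptosome-enriched fraction, the layer between 3% and 10% Percoll, gave 1 library, and total homogenate gave 1 library. Synaptosomes are nerve endings pinched off during homogenisation, often with postsynaptic membrane attached, and the series title names the search for synaptically enriched mRNA as its purpose.

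Kainate receptors are tetrameric, glutamate-gated cation channels that act on both sides of the synapse, and hippocampal mossy fibre synapses are the classical place to study them. The subunits encoded by Grik1, Grik2 and Grik3 bind agonist with lower affinity and can form channels without the others, whereas those encoded by Grik4 and Grik5 bind with high affinity and need a partner of the first kind. Neto1 and Neto2 are transmembrane proteins with extracellular CUB domains that join the receptor and alter its gating.

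Only Grik1 and Grik2 had 2 transcripts each in the files, and in both genes the forms differed by 1 extra exon of 87 bases, the last but one of the longer form. The exons are shown because the estimates of the paired forms turn on them. They were read from GENCODE M21 transcripts at coordinates identical to those of the files (mm10). The Grik1 exon, exon 16 of 17, lies on the minus strand of chromosome 16 from 87896809 to 87896895, is coding throughout and adds 29 codons in frame. The Grik2 exon, exon 17 of 18, lies on the minus strand of chromosome 10 from 49104979 to 49105065, and its reading frame ends after 15 codons at a stop codon, shown in capitals, so that only 48 bases are printed.
Grik1 extra exon: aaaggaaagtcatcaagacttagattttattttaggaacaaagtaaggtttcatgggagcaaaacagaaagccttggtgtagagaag
Grik2 extra exon, coding part and stop codon: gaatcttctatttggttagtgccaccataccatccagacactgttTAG
With the exon, the annotated Grik1 protein has 934 residues and without it 905. The Grik2 form with the exon encodes 869 residues, against 908 in the form without it, because the stop codon replaces the longer tail. The exons share their length. Compared position by position from their first base, without gaps, 27 of 87 bases were identical (31.0%), and 14 of the 45 before the Grik2 stop codon. No alignment was made, so this does not measure how similar the sequences are.

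Per length, Grik5 was by far the most abundant of the 7 mRNAs in both libraries. TPM (a transcript level corrected for length, with the same sum in every library) was 194 for Grik5 in the synaptosome library (95% counting interval 189 to 200.3) and 141 in the homogenate library (136 to 145). In the synaptosome library Grik3 followed at 32.1 TPM, then Neto1 at 22.8, Grik2 at 21.3, Neto2 at 18.3, Grik4 at 17.4 and Grik1 at 10.9. In that order, the counting intervals of neighbours overlapped from Neto1 to Grik4. In the homogenate library Neto1 was second at 38.4 TPM, followed by Grik2 at 33.0, Neto2 at 28.6, Grik3 at 25.6, Grik1 at 15.9 and Grik4 at 14.7, and intervals overlapped between Neto2 and Grik3 and between Grik1 and Grik4. Grik3 thus stood above Neto1, Neto2 and Grik2 in the synaptosome library and below them in the homogenate library. Since each fraction had 1 library, the variation among mice and preparations is unknown, and all intervals cover counting error only.

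**Figure D1:**
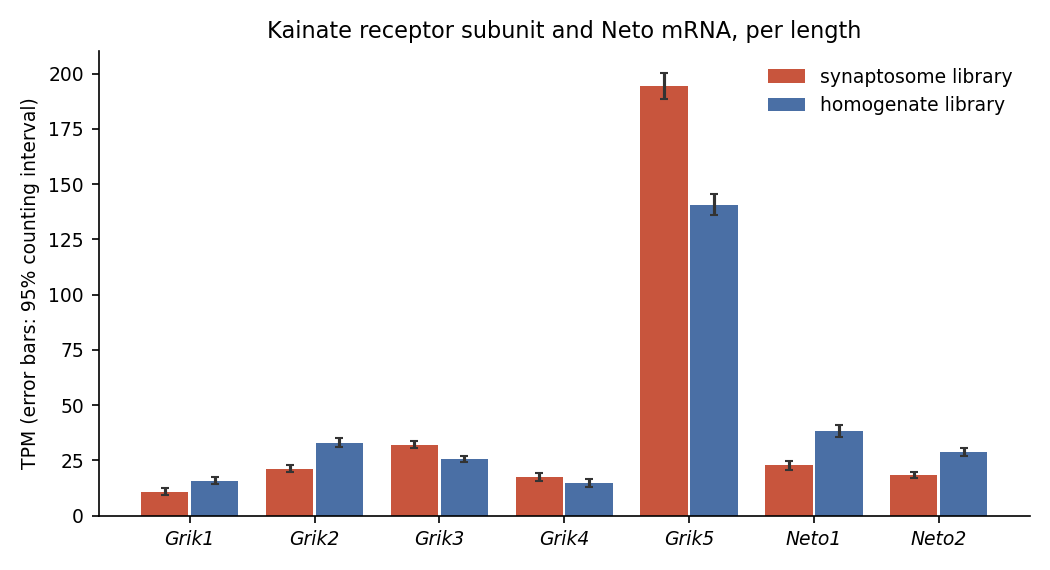
Level of each of the 7 mRNAs in TPM in the synaptosome library (left bar of each pair) and the homogenate library (right bar), with 95% counting intervals. Grik5 stands at 194 TPM in the synaptosome library and 141 in the homogenate library, and every other gene is below 40 in both libraries.

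The high-affinity subunit genes were both more abundant relative to the typical gene in the synaptosome library. Counts were scaled by TMM, which sets the typical gene to a ratio near 1, and a gene was called when its scaled ratio was at least 2-fold and its counting interval excluded no difference. Of the 7 genes, all of which passed the filter on low counts, Grik5 was called higher and 0 were called lower. Among all 14153 genes tested, 12.7% were called higher and 9.22% lower, so 1 of 7 is near the background. At 1.5-fold, Grik3, Grik4 and Grik5 would be called higher and 0 lower, against 23.8% and 21.1% of all tested genes. Grik5 lay on the line that decides the call. Its count was 4334 in the synaptosome library and 3367 in the homogenate library, a scaled ratio of 2.00 (1.92 to 2.10; log2 1.00). The gene lies on chromosome 7 from 25009851 to 25072369. Grik4, on chromosome 9 from 42520412 to 42944371, had 352 counts in the synaptosome library and 320 in the homogenate library, and its ratio of 1.71 (1.47 to 2.00) fell short of the rule.

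The low-affinity subunit genes were divided. Grik3, on chromosome 4 from 125490831 to 125714173, had 1672 counts in the synaptosome library and 1432 in the homogenate library, a scaled ratio of 1.82 (1.69 to 1.95) that also fell short of 2-fold. Grik2, on chromosome 10 from 49099463 to 49788754, had 596 counts in the synaptosome library and 994 in the homogenate library, a ratio of 0.933 (0.842 to 1.03). Grik1, on chromosome 16 from 87895897 to 88290258, had 228 counts in the synaptosome library, against 357 in the homogenate library, and a ratio of 0.994 (0.838 to 1.18). The intervals of Grik1 and Grik2 included 1, and those of Grik3 lay wholly above it. Among all tested genes, the log2 ratio of Grik5 was at percentile 87.4, Grik3 at 83.9, Grik4 at 81.4, Grik1 at 50.5 and Grik2 at 46.2. These percentiles pool genes of all levels, and ratios rose with level. Among tested genes between 100 and 1000 CPM, Grik3 and Grik5 were inside the middle 50%.

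Neither auxiliary gene was called, and the counting interval of Neto1 lay below 1 while that of Neto2 included it. Neto1 (chromosome 18, 86394952 to 86501897), whose protein also associates with NMDA receptors, had 466 counts in the synaptosome library and 843 in the homogenate library, a ratio of 0.861 (0.767 to 0.965; percentile 40.4). Neto2 (chromosome 8, 85636588 to 85691009) had 606 counts in the synaptosome library and 1016 in the homogenate library, and a ratio of 0.928 (0.838 to 1.03; percentile 45.8). Summed, the 2 genes had 1072 counts in the synaptosome library and 1859 in the homogenate library, a ratio of 0.898 (0.832 to 0.968).

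These ratios move with the scaling. When libraries were scaled by their totals alone, every log2 ratio was lower by 0.49, which put the median of all tested genes at -0.51 instead of -0.02. Grik5, Grik3 and Grik4 then remained above 0, at log2 ratios of 0.51, 0.37 and 0.29, while Grik1, Grik2, Neto1 and Neto2 lay at -0.50, -0.59, -0.71 and -0.60. None of the 7 was then called, against 4.49% of all tested genes called higher and 25.6% lower.

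**Figure D2:**
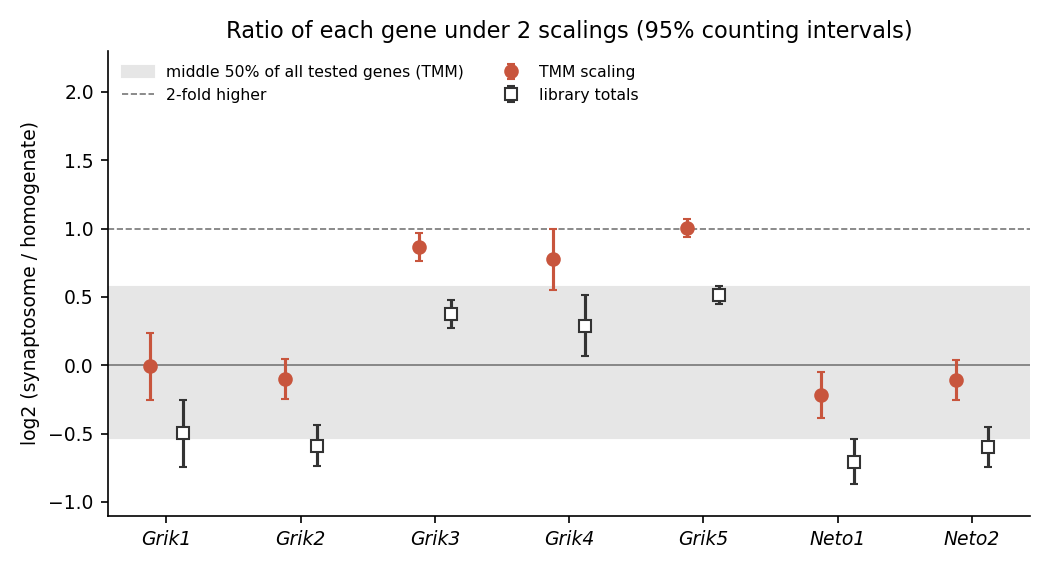
Log2 ratio of synaptosome over homogenate for each gene, with TMM scaling (filled circles) and with library totals (open squares), and 95% counting intervals. The grey band holds the middle 50% of all tested genes under TMM, from -0.53 to 0.57, and Grik3, Grik4 and Grik5 are above it with TMM scaling. That band pools genes of all levels. For tested genes between 100 and 1000 CPM the middle 50% ran from -0.21 to 1.01, which holds Grik3 and Grik5. Between 10 and 100 CPM it ran from -0.47 to 0.49, and Grik4 lies above that.

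Differences between the genes do not depend on the scaling, since it cancels. Relative to Grik2, the gene of a widely used channel-forming subunit, Grik5 was 2.15-fold higher in the synaptosome library than in the homogenate library (counting interval 1.92 to 2.40). Grik3 was 1.95-fold higher relative to Grik2 (1.72 to 2.21), and Grik4 1.84-fold (1.52 to 2.21). Of all 21 pairs among the 7 genes, 13 had an interval that excluded equal ratios. Arranged by their values, these were all 12 pairs that set Grik3, Grik4 or Grik5 against Grik1, Grik2, Neto1 or Neto2, and the pair of Grik3 and Grik5, whose log2 ratios differed by -0.14, Grik3 minus Grik5 (-0.26 to -0.02). The 6 pairs within Grik1, Grik2, Neto1 and Neto2 all had intervals that included equal ratios; the widest difference there, Grik1 over Neto1, was 1.16-fold (0.940 to 1.42). Grik3 over Grik4 was 1.06-fold (0.895 to 1.26), so the lower-affinity Grik3 could not be separated from the high-affinity Grik4 at this depth.

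The make-up of kainate subunit mRNA differed accordingly. Grik5 made up 70.4% of the summed TPM of the 5 subunit genes in the synaptosome library and 61.2% in the homogenate library. Grik2 made up 7.71% in the synaptosome library and 14.4% in the homogenate library, while Grik1 made up 3.96% in the synaptosome library and 6.91% in the homogenate library. Grik3 had 11.6% in the synaptosome library and 11.1% in the homogenate library, and Grik4 had 6.31% in the synaptosome library and 6.41% in the homogenate library. The high-affinity pair together had 76.7% of subunit TPM in the synaptosome library and 67.6% in the homogenate library. Their summed counts were 1.42-fold higher relative to the low-affinity subunits (1.32 to 1.52). That contrast mostly reflects Grik5, with 4334 of the pair's 4686 counts in the synaptosome library, since the share of Grik4 did not rise. The counts are not corrected for length, and Grik3, at 8842 bases, held 1672 of 2496 low-affinity counts in the synaptosome library. Grik5 mRNA was 9.13 times as abundant as Grik2 mRNA in TPM in the synaptosome library and 4.26 times in the homogenate library. Neto1 and Neto2 together came to 0.149 of the summed subunit TPM in the synaptosome library and 0.291 in the homogenate library. In counts, subunits over Neto genes were 1.92-fold higher in the synaptosome library (1.77 to 2.09).

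**Figure D3:**
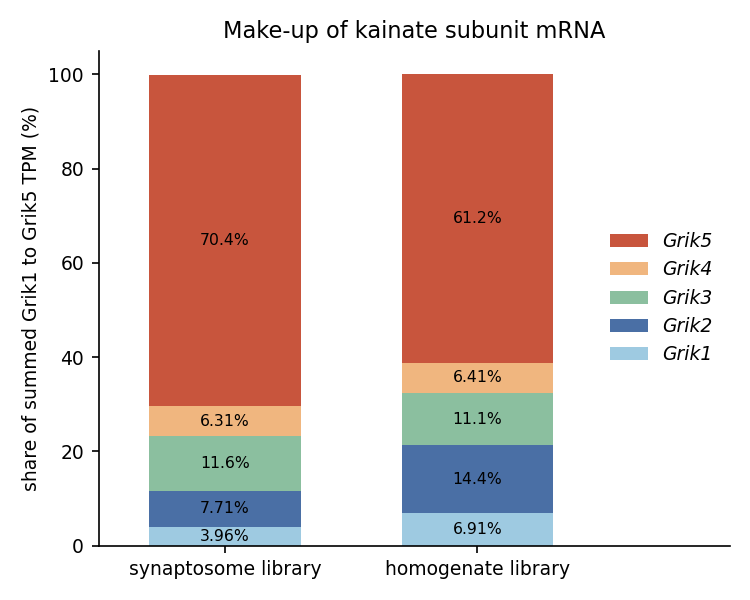
Share of each Grik gene in the summed TPM of the 5 subunit genes, in the synaptosome library (left) and the homogenate library (right). Grik5 takes 70.4% in the synaptosome library and 61.2% in the homogenate library, and Grik2 takes 7.71% in the synaptosome library and 14.4% in the homogenate library.

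The deposited estimates gave a lower share to the exon-containing form of both Grik1 and Grik2 in the synaptosome library. The Grik2 form with the extra exon (NM_010349) had estimated counts of 55.01 in the synaptosome library and 225.39 in the homogenate library, a ratio of 0.381 (0.278 to 0.513), and was called lower, as were 13.6% of the 17613 transcripts tested, while 16.1% were called higher. The form without it (NM_001111268) had 541.06 in the synaptosome library and 768.62 in the homogenate library, a ratio of 1.10 (0.979 to 1.22). For Grik1, the form with the exon (NM_146072) had 61.21 in the synaptosome library and 157.88 in the homogenate library, a ratio of 0.601 (0.440 to 0.812), and the form without it (NM_010348) had 166.79 in the synaptosome library and 199.04 in the homogenate library, a ratio of 1.31 (1.06 to 1.61). In TPM the exon-containing form was 9.06% of Grik2 in the synaptosome library and 22.4% in the homogenate library. It was 26.3% of Grik1 in the synaptosome library and 43.6% in the homogenate library.

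Few reads can tell these forms apart. Only a read that overlaps the extra exon, or crosses the junction that skips it, bears on the choice, and the intervals above do not include that uncertainty. If reads were single and 100 bases long, which the labels give as 1 of 2 layouts, the Grik2 estimates correspond to about 2.14 exon reads and 11.4 skipping reads in the synaptosome library, and to 8.78 and 16.2 in the homogenate library. For Grik1 they correspond to 3.20 and 4.75 in the synaptosome library and to 8.25 and 5.67 in the homogenate library. Rounded to whole reads, the exact interval of the share of exon reads for Grik2 ran from 1.92% to 45.4% in the synaptosome library and from 18.0% to 57.5% in the homogenate library. The Grik1 interval ran from 8.52% to 75.5% in the synaptosome library and from 28.9% to 82.3% in the homogenate library. The intervals of the 2 libraries overlapped for both genes, which is not a test of their difference. These read numbers were worked back from the deposited estimates, not observed. More read positions overlap the exon than cross the junction, so a share of reads is not the share of a form. Whether exon use differed between the libraries was not tested.

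**Figure D4:**
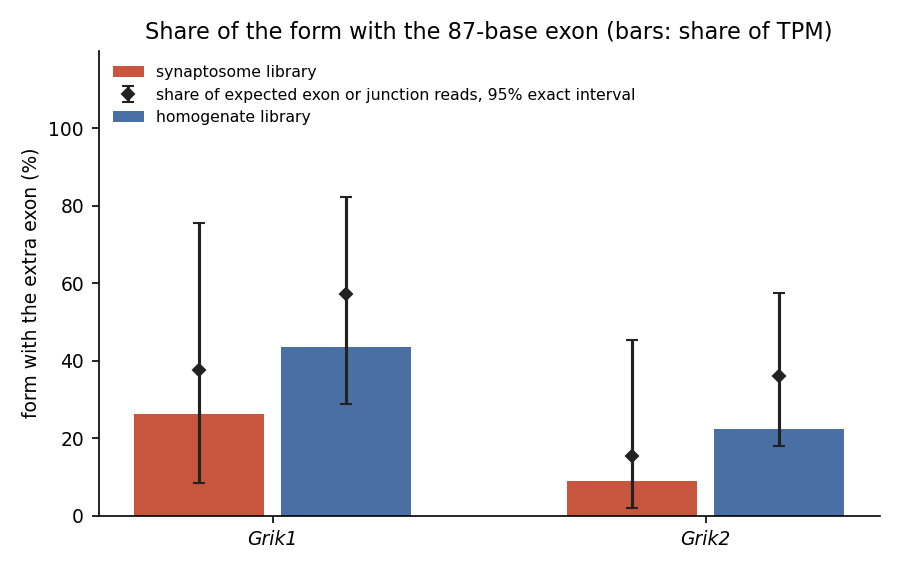
Share of the form with the 87-base exon in the TPM of Grik1 and of Grik2 (bars), synaptosome library left of homogenate library. Diamonds give the share of exon-overlapping reads among the reads expected to tell the forms apart, with exact 95% intervals, which overlap between the libraries for both genes. The share of reads and the share of TPM are different measures.

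Among ionotropic glutamate receptors the summed ratio of the kainate family was close to that of the AMPA family and below that of the NMDA family. The summed Grik counts were 7182 in the synaptosome library and 6470 in the homogenate library, a scaled ratio of 1.73 (1.67 to 1.79). The ratio of Grik1 to Grik5 over that of Gria1 to Gria4, the AMPA receptor subunits, was 0.988 (0.951 to 1.03). Over the 7 NMDA receptor subunits it was 0.484 (0.464 to 0.504). These sums are weighted to the most abundant genes. Grin1 held 18575 of 21313 NMDA counts in the synaptosome library and 7504 of 9288 in the homogenate library. Grik5 held 4334 of the Grik counts in the synaptosome library and 3367 in the homogenate library. The summed NMDA values, in counts and in TPM, are thus mostly those of Grin1. Kainate subunits made up 13.5% of the summed TPM of kainate, AMPA and NMDA subunits in the synaptosome library and 18.0% in the homogenate library. AMPA subunits made up 38.7% in the synaptosome library and 51.6% in the homogenate library, and NMDA subunits 47.8% in the synaptosome library and 30.4% in the homogenate library. Of 5 genes given here for AMPA and delta receptors 1 was called higher and 0 lower (median log2 ratio 0.88), with Grid1, a delta receptor subunit, the highest at 2.51-fold and Gria4 the lowest at 1.11-fold. Of 6 NMDA genes that passed the filter 5 were called higher and 0 lower (median 1.27), from Grin1 at 3.85-fold to Grin2d at 1.76-fold. Of all tested genes 12.7% were called higher and 9.22% lower. With library totals 4.49% of all tested genes were called higher, and under that scaling as with TPM 2 of the NMDA genes and 0 of the AMPA and delta genes were. The median over the 5 kainate subunits was 0.78, and over all tested genes -0.02.

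**Figure D5:**
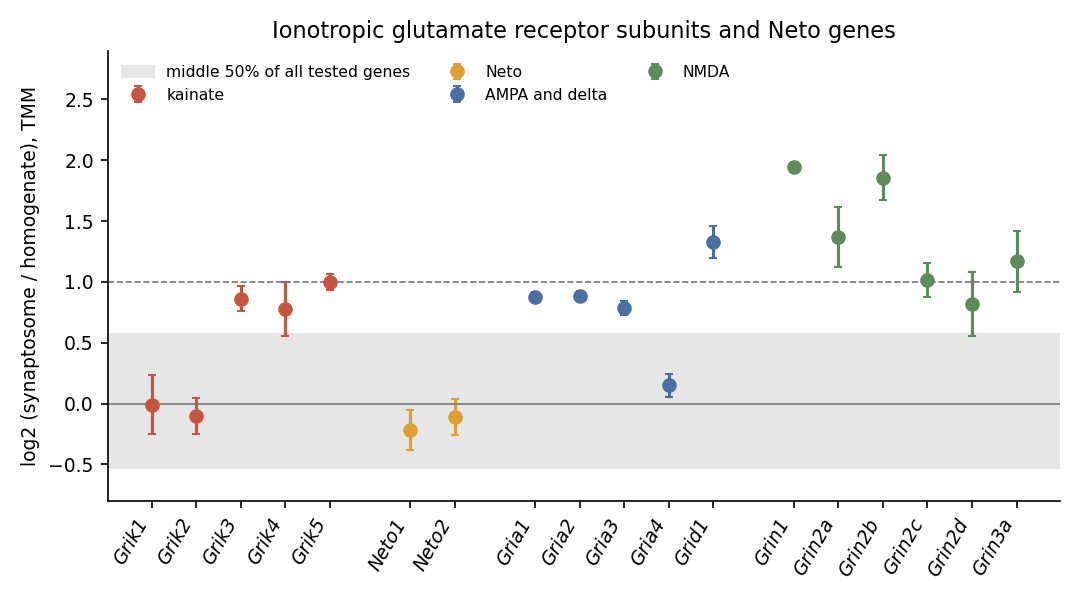
Log2 ratio of synaptosome over homogenate with TMM scaling for the ionotropic receptor subunits given here that passed the filter and for the Neto genes, with 95% counting intervals. Grik1, Grik2, Gria4 and both Neto genes lie inside the grey band that holds the middle 50% of all tested genes, and 5 of 6 NMDA genes lie above the dashed line at 2-fold.

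Proteins that bind, place or move kainate receptors went both ways. Of 20 such genes 5 were called higher and 1 lower, against 12.7% and 9.22% of all tested genes, and the median log2 ratio was 0.24. These counts turned with the scaling, to 1 higher and 6 lower with library totals (median -0.25; 4.49% higher and 25.6% lower over all tested genes) and to 0 higher and 6 lower with TPM. C1ql2, a secreted ligand that gathers kainate receptors at mossy fibre synapses, was 2.11-fold higher (1.67 to 2.67), and Nrxn3, a presynaptic adhesion protein, was 2.33-fold higher. The related C1ql3 had a ratio of 1.44 (1.33 to 1.55). The adhesion proteins Cdh2 (N-cadherin) and Ctnnb1 (beta-catenin) were 2.34-fold and 2.02-fold higher. Slc12a5, the neuronal chloride exporter that Neto2 binds, was the highest of the list at 2.81-fold (2.74 to 2.88), while Neto2 itself was at 0.928. Snap25, a membrane fusion protein, was lowest at 0.373 (0.365 to 0.381). The genes of PDZ-domain proteins in the list lay on both sides of 1 and none of these was called with TMM scaling. Their ratios were 1.88 for Dlg4, 1.63 for Snx27, 1.33 for Dlg1, 1.19 for Cask, 0.696 for Grip1, 0.607 for Dlg3 and 0.558 for Pick1. With library totals Pick1, Dlg3 and Grip1 were past 2-fold lower, at log2 ratios of -1.33, -1.21 and -1.01, and the other PDZ genes were not past 2-fold. Of the 3 genes of the adenosine deaminases that act on RNA, a class that recodes the pore of the Grik1 and Grik2 products, 0 were called higher and 1 lower, or 2 lower with library totals or TPM. Adarb1 had a ratio of 1.71 (1.64 to 1.78), Adar one of 0.674 (0.635 to 0.715), and Adarb2, which has no known editing activity, fell to 0.482 (0.350 to 0.653).

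Among the 31 glutamate receptor and partner genes averaging 10 CPM (a count per library size) or more, the one nearest in log2 ratio was Gria1 for Grik3 (1.84-fold), Gria3 for Grik4 (1.72-fold), Ctnnb1 for Grik5, and Gria4 for Grik1 (1.11-fold). Kif17, a dendritic kinesin, with a ratio of 0.842, was nearest to Grik2, Neto1 and Neto2. Likeness here is the difference in 1 log2 ratio over 2 libraries.

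Markers of cell types differed between the libraries beside these genes. Astrocyte markers were called higher for 7 of 8 genes (log2 ratios from Gja1 at 0.82 to Gfap at 2.46, summed TPM 5142 in the synaptosome library and 1870 in the homogenate library). Neuron markers were called lower for 4 of 8 and higher for 0 (Snap25 at -1.42 to Slc17a7 at 0.93, summed TPM 3778 in the synaptosome library and 7143 in the homogenate library). Of 6 markers each, 2 were higher for oligodendrocytes (Mog at -0.17 to Mbp at 2.40), 2 for their precursors (Olig2 at 0.02 to Cspg4 at 1.62) and 4 for microglia (Cx3cr1 at 0.67 to Tyrobp at 2.17), with 0 lower, while 6 were lower for endothelium (Slco1a4 at -3.91 to Flt1 at -2.74). Of 8 dendritic mRNAs 5 were higher and 0 lower (Nrgn at -0.54 to Kif5a at 2.38), and of 5 nuclear noncoding RNAs that passed the filter 5 were lower (Neat1 at -3.29 to Miat at -2.02). Over all tested genes 12.7% were called higher and 9.22% lower. With library totals and with TPM the higher counts were 5 for astrocytes, 4 for dendritic mRNAs, 2 for microglia and 1 for oligodendrocyte precursors. The lower counts were then 5 for neurons and 1 for dendritic mRNAs, and the other counts of this paragraph's lists did not change. With library totals 4.49% of all tested genes were called higher and 25.6% lower. None of the listed neuron or astrocyte markers was at 0 in either library. In such bulk RNA fewer cells, or cell parts, of a type and less RNA per cell cannot be told apart, and the part of cell make-up in the kainate receptor ratios was not tested. Ratios also rose with level, the median log2 ratio being -0.04 for 7849 tested genes between 10 and 100 CPM, where Grik1, Grik2, Grik4, Neto1 and Neto2 lie, and 0.40 for 2173 genes between 100 and 1000, where Grik3 and Grik5 lie. In the higher band the third quartile was 1.01, above Grik3 and just above Grik5, and 25.7% of genes were called higher. In the lower band the third quartile was 0.49, below Grik4, and 9.99% were called higher.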

How the data were processed

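The submitters' processing notes name FastQC, TopHat 1.3.3, RSEM 1.2.5, edgeR 3.0.6 and build mm10, with no role or setting. The authors deposited expected counts and TPM per transcript and library, and a signal value per gene that was used as an alternative. Expected counts were summed per gene symbol and rounded, giving totals of 13709539 (synaptosome) and 15210857 (homogenate). Genes averaging 1 CPM or more over both libraries were kept, and TMM factors were 0.844 and 1.18 (edgeR 4.0.16, R 4.3.3). Ratios have exact 95% Clopper-Pearson intervals given the summed count, and TPM has exact Poisson ones. PCR copies and the error of assigning reads to transcripts are not covered. With 1 library a fraction there is no p-value. Pairs of ratios were compared by the conditional odds ratio (scipy 1.17.1). On counts simulated with counting error only (14139 genes), 95.8% of intervals held the true ratio and all 200 genes changed 3-fold were called. So were 32 of 13939 unchanged genes. The changed genes were drawn only above a level floor higher than the filter, with as many raised as lowered. The simulation therefore does not bear on the choice between TMM and library totals. It also held no variation among preparations and no error of assigning reads, so it tests neither. Members and lists (receptor families, 20 partners, 3 editing enzymes, markers of 6 cell types, dendritic and nuclear RNAs) were chosen with earlier results of these data known. In each list the highest and lowest ratios are named, and other names outside the members were picked with values in view. The files list Map2 as Mtap2, and 1 gene of the lists is not reported here. In GENCODE M21, an antisense gene shares 219 exonic bases with Neto1 and a small RNA 59 with Grik4. The kit is stranded, but no source used here says whether counting used strand.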

Additional observations from a re-analysis of the deposited data

How the results depend on the processing

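No paired analysis was possible because each fraction had 1 library, and no library could be left out. Unrounded counts, scaling without the filter, DESeq2 size factors and the deposited signal kept all 7 log2 ratios inside their counting intervals, and under the last 3 of these Grik5 was the 1 gene called. Scaling without the filter and DESeq2 size factors each move every log2 ratio by 1 constant, 0.0045 and 0.018. The deposited signal comes from the same 2 libraries, so none of these is an independent check. Library totals gave -0.50 for Grik1, -0.59 for Grik2, 0.37 for Grik3, 0.29 for Grik4, 0.51 for Grik5, -0.71 for Neto1 and -0.60 for Neto2. TPM ratios gave -0.54, -0.63, 0.33, 0.24, 0.47, -0.75 and -0.64 in the same order. Under both, 0 genes were called higher. With TMM scaling and a rule of 1.5-fold 3 were called higher (23.8% of all tested genes). None was lower under any setting in which calls were counted. The transcript with most counts alone gave 0.39 for Grik1 and 0.13 for Grik2. With library totals the transcripts NM_010348, NM_146072, NM_001111268 and NM_010349 had log2 ratios of -0.10, -1.22, -0.36 and -1.88, and with TPM -0.15, -1.26, -0.40 and -1.93. As shares of counts without length, in the synaptosome and homogenate libraries, Grik1 had 3.17% and 5.52%, Grik3 23.3% and 22.1%, Grik4 4.90% and 4.95%, Grik5 60.3% and 52.0%, and Grik2 15.4% in the homogenate library. Counts of the other lists moved by more than 1.5 times for 8 of 24 under library totals and for 8 of 24 under TPM. The smallest counts, 55 and 61 for exon-containing forms, limit what can be said of isoforms.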
